A study of Bombyx mori with 12 samples.

Results

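The BmorCPH genes of the silkworm Bombyx mori are annotated as hypothetical cuticular proteins. They were taken as every sequence on the array whose systematic name starts with BmorCPH, with probes of 1 gene merged. This gave 34 genes with 2 probes each, 68 of the 42340 probes with values on all 12 arrays, among 32093 named sequences. Insect cuticle is a composite of chitin and cuticular proteins that is secreted by the epidermis beneath it and replaced at each moult. Most cuticular proteins fall into families with a shared sequence motif, such as the Rebers and Riddiford consensus of the RR-1 and RR-2 families or the glycine-rich repeats of the BmorCPG family. The BmorCPH set gathers the proteins thought to be cuticular that carry none of these motifs, and the files name no function of any single member beyond that annotation.

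The study recorded transcripts of the larval corpora cardiaca-corpora allata complex (CC-CA) and of 9 other tissues on 1-colour Agilent arrays. The CC-CA is the gland behind the brain whose corpora allata make juvenile hormone, which keeps a moult larval, and whose corpora cardiaca release neurohormones such as adipokinetic hormone. One array held 5th instar CC-CA, taken on day 4, and 2 arrays from independent experiments held 4th instar CC-CA, taken on day 2. Epidermis, prothoracic gland, brain, fat body, midgut, Malpighian tubule and salivary gland of day 2 of the 4th instar had 1 array each, as did ovary and testis of 5th instar larvae on day 10, which was 3 days into wandering. All larvae were of the Kinsyu x Showa commercial hybrid, reared on mulberry leaves without any treatment that the labels name, and the labels do not state how many animals a sample pools. The gonads therefore differed from the other tissues in stage as well as in tissue.

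A level below is the log2 of a probe's processed signal minus the 75th percentile of its array, so that 0 is that percentile, and a gene is given by the brighter of its probes. Levels of different genes come from different probes and are not set against each other. Feature Extraction marks each spot as well above background or not (dim), as given below for the brighter probe unless the other is named, and the share of spots so marked ran from 60.4% in fat body to 78.6% in testis. Tissue markers lay where their names put them. The juvenile hormone acid methyltransferase gene BmJHAMT, an enzyme of the corpora allata, was well above background on the 3 CC-CA arrays only, with a level of -1.55 in the 5th instar, against 2.39 and 2.08 in the 4th instar. The adipokinetic hormone genes AKH-1 and AKH-2 were highest in CC-CA, the eclosion hormone, corazonin and sulfakinin genes in brain, the AKHR gene in fat body and the DHR gene in Malpighian tubule. Apart from the 4th instar CC-CA, every group rests on 1 array and has no replicate of its own. Its spread was taken from the 4th instar CC-CA pair, moderated over all probes by limma, and p-values below are limma's with Benjamini-Hochberg adjustment over all probes tested. In dissected tissue, fewer cells of a type and less RNA per cell cannot be told apart.

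Of the 34 genes, 29 had a probe that was well above background throughout at least 1 group. The other 5, BmorCPH9, BmorCPH15, BmorCPH17, BmorCPH20 and BmorCPH29, had none, and nothing is said of them beyond that. The representative probe was well above background for 18 of 34 genes in each of the 5th instar CC-CA, the 4th instar CC-CA, epidermis and ovary, for 16 in testis and for 15 in brain. It was so for 11 genes in prothoracic gland, 10 in salivary gland, 9 in fat body, 4 in midgut and 3 in Malpighian tubule. The share of all sequences was 57.6% in fat body, 63.1% in midgut, 64.0% in Malpighian tubule and 60.7% to 77.5% in the other groups, above that of the BmorCPH genes (8.82% to 52.9%) in each. The 2 probes of a gene differed in being well above background for 27 of 408 pairs of a gene and an array, and only the dimmer probe was so in 5 of them, in BmorCPH7, BmorCPH13, BmorCPH14, BmorCPH19 and BmorCPH33. Only BmorCPH4 and BmorCPH27 were well above background on all 12 arrays. Epidermis was the group with the highest level for 9 of the 29 genes (31.0%, against 8.01% of all 28642 sequences detected), and ovary for 7 (24.1%, against 8.12%). Among the 9, BmorCPH30 led the 4th instar CC-CA by only 1.17-fold (adjusted p = 0.861), and the brighter probe of BmorCPH7 was dim in epidermis. The epidermis count was 7 with a floor under dim signals and 10 without the first 4th instar CC-CA array. The 5th and the 4th instar CC-CA were each highest for 4 genes (13.8%, against 6.92% of all sequences for the 5th and 2.05% for the 4th) and testis for 2, BmorCPH31 and BmorCPH33 (6.90%, against 17.4%). The 4 of the 4th instar were BmorCPH6, BmorCPH10, BmorCPH16 and BmorCPH28, and none was enriched over all 9 tissues by the test given below. BmorCPH28 led ovary by only 1.05-fold (log2 difference 0.07, adjusted p = 0.945). Brain, midgut and salivary gland were highest for 1 each, BmorCPH32, BmorCPH8 and BmorCPH5 (3.45%, against 10% to 10.4%). BmorCPH8 was seen on 1 of its probes alone, at -4.76 in midgut. The map of all members by array shows these patterns.

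**Figure D1:**
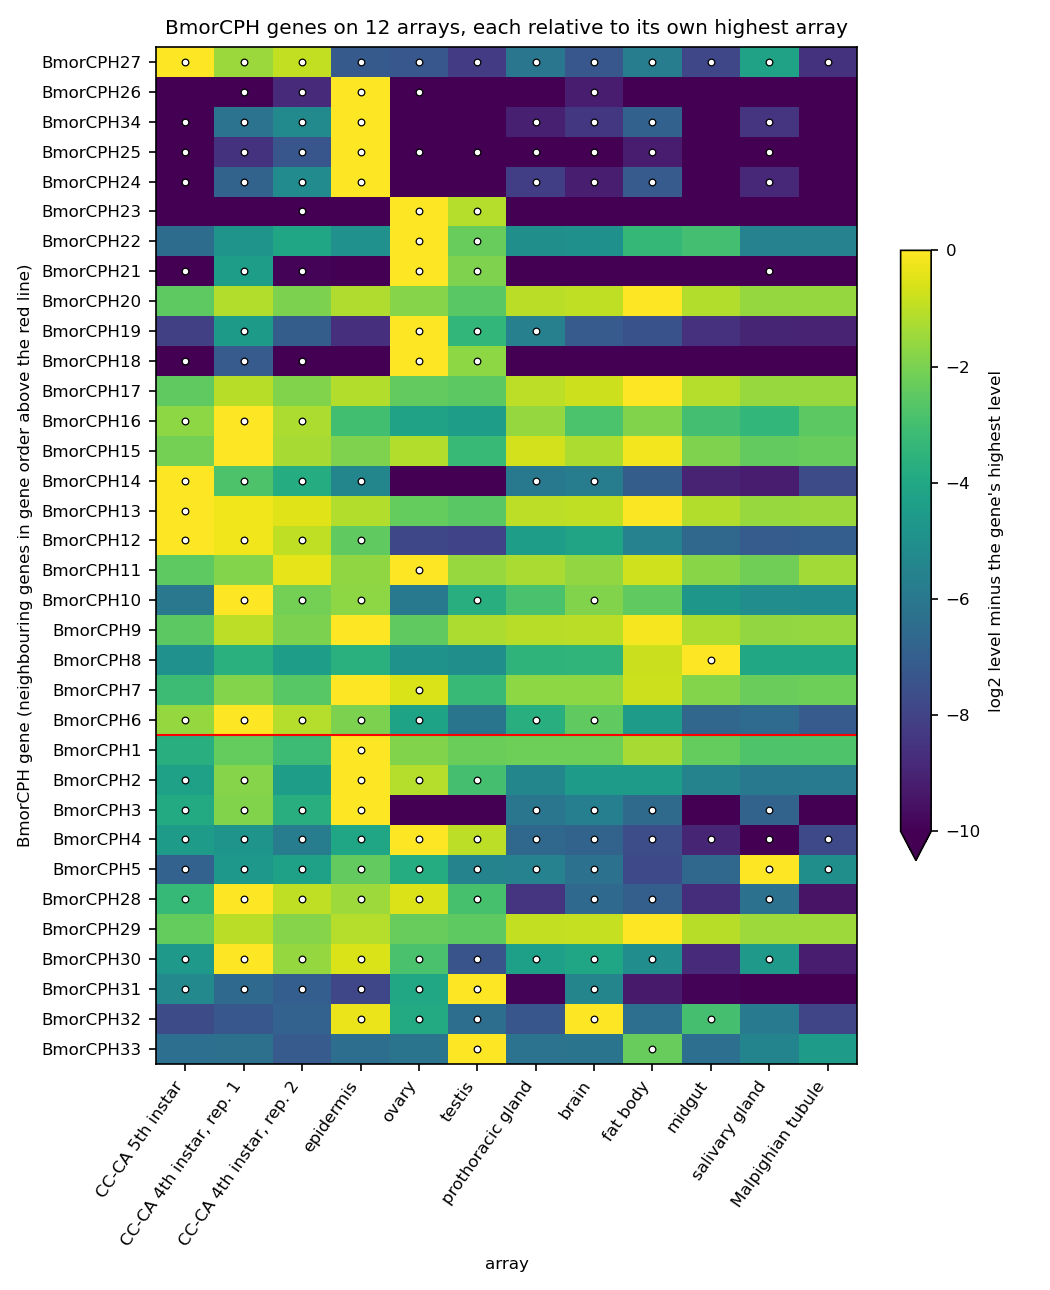
Each row is 1 of the 34 BmorCPH genes and each column 1 of the 12 arrays; colour gives the log2 level minus the highest level of the same gene, colours past -10 are drawn as -10, and a white dot marks a spot well above background. The 23 rows above the red line are neighbouring genes in chromosome order. Blocks of bright cells with dots sit in epidermis for BmorCPH24, BmorCPH25, BmorCPH26 and BmorCPH34 and in ovary and testis for BmorCPH18, BmorCPH21, BmorCPH22 and BmorCPH23, and rows without a dot hold background only.

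Much of the family lies together in the genome. In the RefSeq annotation of assembly ASM3026992v2, whose build may differ from that of the array design and which is used here for gene order alone, 33 of the 34 genes were found by name (all but BmorCPH29). Of these, 23 form 1 run among 29 consecutive annotated genes. Along it stand BmorCPH27, then BmorCPH26, BmorCPH34, BmorCPH25 and BmorCPH24, then BmorCPH23 down to BmorCPH6 in falling number. The tissue of highest level changed in blocks along this run. BmorCPH27 at its first place was highest in CC-CA, the next 4 were highest in epidermis, and the 6 after them (BmorCPH23 to BmorCPH18) were highest in ovary, save BmorCPH20, which was not detected. From BmorCPH16 to BmorCPH6, the genes detected were highest in CC-CA in 6 of 9 cases (BmorCPH6, BmorCPH10, BmorCPH12, BmorCPH13, BmorCPH14 and BmorCPH16). BmorCPH10 led only by the mean of the 4th instar arrays (-3.63 and -5.74), the second lying below epidermis (-5.33) and brain (-5.52). Its difference of the 4th instar CC-CA from epidermis was 0.65 on the log2 scale (adjusted p = 0.693). BmorCPH11 was highest in ovary at -6.63, BmorCPH8 in midgut, and BmorCPH7 in epidermis, where only the dimmer of its probes was well above background. BmorCPH13 was well above background on 1 array by its brighter probe, the 5th instar CC-CA (-6.77), where the other probe was dim (-9.73), and the other probe was so in testis alone (-6.77). For 4 genes the rank was not resolved above background, since the highest level was only 0.57-fold (BmorCPH13), 0.63-fold (BmorCPH11), 0.82-fold (BmorCPH7) and 0.98-fold (BmorCPH16) of the lowest signal well above background in fat body. BmorCPH15, BmorCPH17 and BmorCPH9 were not detected.

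Levels over the 11 groups went together within the epidermis and ovary blocks, and less closely among the CC-CA genes. Pearson's r ran from 0.765 to 0.990 (median 0.924) among BmorCPH24, BmorCPH25, BmorCPH26 and BmorCPH34, and from 0.714 to 0.975 (median 0.894) among BmorCPH18, BmorCPH19, BmorCPH21, BmorCPH22 and BmorCPH23. Among BmorCPH6, BmorCPH10, BmorCPH12, BmorCPH14 and BmorCPH16 it ran from 0.236 to 0.960 (median 0.652). This set leaves out BmorCPH7, BmorCPH8, BmorCPH11 and BmorCPH13, which lie in the same stretch. With BmorCPH27, at the other end of the run, r for these 5 ran from 0.007 to 0.771 (median 0.646). Between the first and the second of these sets it lay between -0.56 and -0.04. These sets were drawn after their values were seen, the 11 points of each pair share their arrays, and dim values follow the background of their array, so the coefficients are descriptions only.

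**Figure D2:**
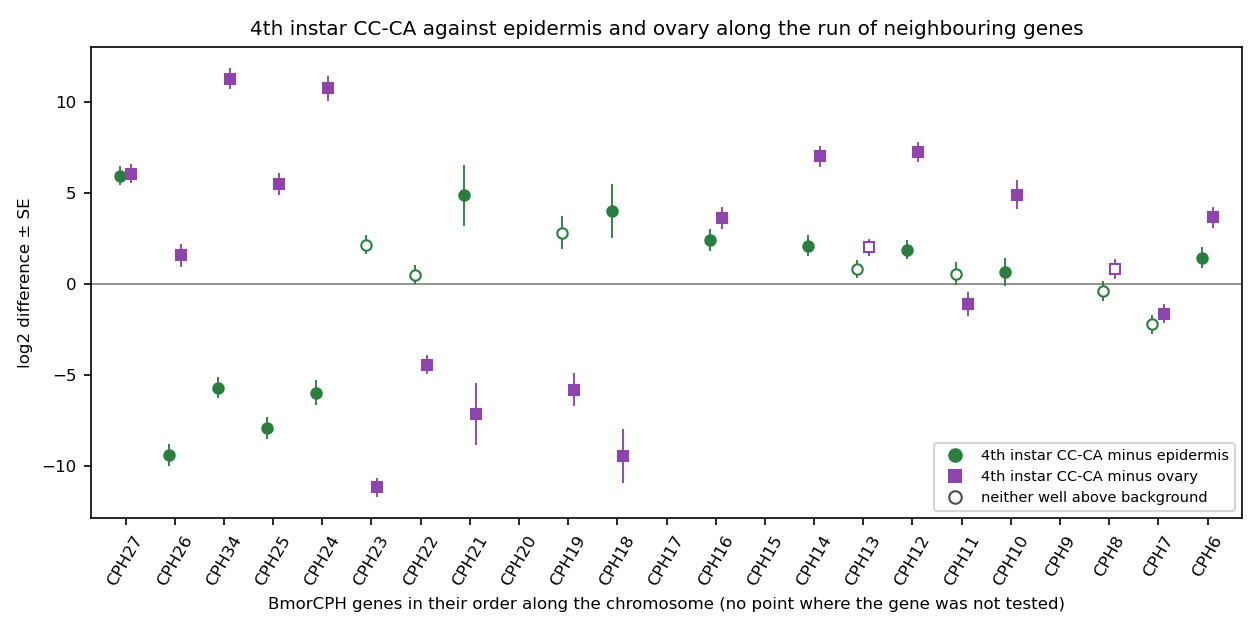
The 23 neighbouring genes are in chromosome order on the horizontal axis; the vertical axis gives the fitted log2 difference of the 4th instar CC-CA (mean of 2 arrays) minus epidermis (green circles) and minus ovary (purple squares), with its standard error. Open symbols mark differences in which neither group was well above background on all its arrays, and genes not tested have no point. Differences from epidermis are negative for BmorCPH26, BmorCPH34, BmorCPH25 and BmorCPH24 (-9.41 to -5.72), and differences from ovary are negative for BmorCPH23, BmorCPH22, BmorCPH21, BmorCPH19 and BmorCPH18 (-11.21 to -4.46).

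Epidermis was set against the 7 other groups of day 2 of the 4th instar, because it is the tissue that lays down larval cuticle. Of 29 genes tested, 6 were enriched in epidermis, meaning an adjusted p below 0.05 and at least a 2-fold excess over each of the 7 groups; 3.45% of all sequences passed this rule. They were BmorCPH2, BmorCPH3, BmorCPH24, BmorCPH25, BmorCPH26 and BmorCPH34. In the other families the count was 24 of 45 for RR-1, 11 of 64 for RR-2, 16 of 28 for BmorCPG and 4 of 9 for the BmorCPT, BmorCPF and BmorCPFL genes together. No epidermis call held under quantile normalization, which gave 0 enriched members with adjusted p-values from 0.055 to 0.294 at differences of 2.46 to 8.59.

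BmorCPH25 had a level of 8.05 in epidermis, where both of its probes were saturated, against -0.49 and 0.72 in the 4th instar CC-CA, -1.20 in fat body, -2.64 in brain, -2.70 in salivary gland and -3.15 in prothoracic gland. It was not well above background in midgut (-8.15) and Malpighian tubule (-7.46). In ovary and testis it was at -5.34 and -6.91. Epidermis was at least 244-fold above the nearest of the 7 groups, the 4th instar CC-CA (log2 difference 7.93, SE 0.602, adjusted p = 5.35e-05).

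BmorCPH26 stood at 5.41 in epidermis, against -3.77 in brain and -4.65 and -3.35 in the 4th instar CC-CA, while the other 5 groups of the comparison lay between -8.86 and -5.79 and were not well above background. Ovary was at -5.55 on this probe but not well above background on the other (-9.13). The excess over brain, the nearest group, was 581-fold (log2 difference 9.18, adjusted p = 2.81e-05). On the second probe brain was not well above background either (-7.03), and the gene was enriched on that probe too.

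BmorCPH24 reached 7.26 in epidermis, against 0.43 and 2.10 in the 4th instar CC-CA, 0.14 in fat body, -0.87 in prothoracic gland, -1.59 in salivary gland and -1.89 in brain. BmorCPH34 reached 7.77 in epidermis, against 1.57 and 2.55 in the 4th instar CC-CA, 0.89 in fat body, -0.59 in brain, -0.73 in salivary gland and -1.35 in prothoracic gland. Both were dim in midgut, Malpighian tubule, testis and ovary, at -9.64 to -6.74 for BmorCPH24 and -9.22 to -7.96 for BmorCPH34. Epidermis exceeded the 4th instar CC-CA, the nearest group in both cases, 63.8-fold for BmorCPH24 (SE 0.692 on the log2 scale, adjusted p = 0.000455). For BmorCPH34 the excess was 52.6-fold (log2 difference 5.72, SE 0.562, adjusted p = 0.000204). Epidermis thus stood far outside the range of the other groups for each of these 4 neighbours, and the CC-CA or brain came next.

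The 2 other genes lie outside the run, near each other. BmorCPH3 was at 3.25 in epidermis, against 1.35 and -0.48 in the 4th instar CC-CA, -2.43 in brain, -2.80 in prothoracic gland, -3.27 in fat body and -3.55 in salivary gland. It was dim in midgut (-8.10), Malpighian tubule (-8.53), ovary (-8.17) and testis (-9.55). The excess over the 4th instar CC-CA was 7.06-fold (log2 difference 2.82, SE 0.726, adjusted p = 0.0277). BmorCPH2 was at -2.47 in epidermis, against -4.30 and -6.85 in the 4th instar CC-CA, the second of which was not well above background, and -8.43 to -6.93 in the other 6 groups, all dim. It was also clear in ovary (-3.59) and testis (-5.43). Its excess over the mean of the 2 CC-CA arrays was 8.62-fold (log2 difference 3.11, SE 0.899, adjusted p = 0.0455). Over the first of these arrays alone, the one well above background, the log2 difference was 1.84. The call was lost under 3 of 10 alternatives, among them the prior variance from plain moments (adjusted p = 0.076).

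Epidermis shared slide 3 with Malpighian tubule, testis and ovary, and with no CC-CA array, so a difference of CC-CA from epidermis and one of slides cannot be told apart. On the shared slide, epidermis was above Malpighian tubule, dim for all 6 genes, at least 34.7-fold for BmorCPH2, at least 1827-fold for BmorCPH3 and at least 8162-fold for BmorCPH26. For BmorCPH24, BmorCPH34 and BmorCPH25 the bounds were 16463-fold, 41947-fold and 46816-fold.

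The CC-CA of the 4th instar was then compared with each of the 9 tissues, the contrast named in the study's title. Enrichment over all 9 (adjusted p below 0.05 and at least 2-fold against each) was called for 3 of 29 genes, BmorCPH12, BmorCPH14 and BmorCPH27, against 1.19% of all sequences. The same count was 1 of 45 for RR-1 and 0 of 64, 0 of 28 and 0 of 9 for RR-2, BmorCPG and the BmorCPT, BmorCPF and BmorCPFL genes. The calls of BmorCPH12 and BmorCPH14 were lost with the prior variance from plain moments (adjusted p = 0.0552 and 0.0515), and all 3 under quantile normalization (adjusted p of 0.156, 0.187 and 0.0558).

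BmorCPH27 was abundant in every CC-CA sample, with 5.48 in the 5th instar and 3.97 and 4.54 in the 4th instar. Salivary gland, on the same slide as the second 4th instar array and the 5th, followed at 1.23, fat body at -0.30, prothoracic gland at -0.59, epidermis at -1.68, brain at -1.80, ovary at -1.80, midgut at -2.41, testis at -2.73 and Malpighian tubule at -3.05. No tissue overlapped the CC-CA arrays. Its 4th instar CC-CA level exceeded salivary gland by 3.03 on the log2 scale (adjusted p = 0.00239 as the largest over the 9 tissues) and epidermis 61.5-fold (log2 difference 5.94, SE 0.509, adjusted p = 0.000104). The second probe gave the same call, with a smallest difference of 3.23.

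BmorCPH12 lay at -1.43 in the 5th instar CC-CA and at -1.65 and -2.39 in the 4th, against -3.88 in epidermis, and the other 8 arrays lay between -9.43 and -5.59 with none well above background. The excess over epidermis was 3.64-fold (log2 difference 1.86, SE 0.529, adjusted p = 0.0421). Its probes disagreed in that tissue. The second probe read -1.70 and -2.46 in the 4th instar CC-CA, against -8.14 in epidermis, not well above background. The excess over epidermis was thus 3.64-fold on one probe and at least 27.8-fold on the other, and its size is uncertain.

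BmorCPH14 lay at 0.74 in the 5th instar CC-CA and at -2.05 and -3.08 in the 4th, against -4.66 in epidermis, -5.08 in brain and -5.20 in prothoracic gland, with the other 6 arrays at -9.74 to -6.32 and dim. Fat body, dim on this probe (-6.32), was well above background on the other (-4.85), close to epidermis there (-4.75). The 4th instar CC-CA exceeded epidermis 4.26-fold (log2 difference 2.09, SE 0.571, adjusted p = 0.0358). BmorCPH6, at the far end of the run, had -3.05 in the 5th instar CC-CA and -1.47 and -2.57 in the 4th, against -3.45 in epidermis, -3.92 in brain, -5.15 in prothoracic gland and -5.66 in ovary. In the other 5 tissues it was dim, at -8.61 to -6.00. Its excess over epidermis, 1.42 on the log2 scale (SE 0.582), did not pass the test (adjusted p = 0.149).

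Against epidermis alone, 5 of 29 genes were higher in the 4th instar CC-CA (7.65% of all sequences were) and 10 were lower (10.1% of all sequences were). The 5 were BmorCPH12, BmorCPH14 and BmorCPH27, together with BmorCPH16 and BmorCPH23. BmorCPH16 was at -5.36 and -6.61 in the CC-CA on the brighter probe, against -8.39 and dim in epidermis, at least 1.85-fold (adjusted p = 0.025), and its second probe was dim on all 12 arrays. It entered the test through CC-CA only, so its call is not independent of that filter. BmorCPH23 was well above background on 1 of the 2 CC-CA arrays and not in epidermis, so no fold is given (log2 difference 2.15, adjusted p = 0.0208). Both calls were lost with normexp background correction, where the differences were 0.16 and 0.03.

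The 10 lower genes were the 6 enriched in epidermis with BmorCPH1, BmorCPH5, BmorCPH7 and BmorCPH32. BmorCPH1 was well above background on the epidermis array alone (-5.57), at least 2.88-fold above the 4th instar CC-CA (adjusted p = 0.00688). It entered the test through epidermis only, so its call is not independent of that filter. BmorCPH7 was not well above background in either tissue on its brighter probe (adjusted p = 0.0187). The call of BmorCPH1 was lost under 3 of 10 alternatives (adjusted p up to 0.425) and that of BmorCPH7 under 4 (adjusted p up to 0.763), with differences of -0.95 and -0.38 under a floor on dim signals. BmorCPH32 was dim in the 4th instar CC-CA (-8.21 and -7.80), against -1.20 in epidermis, which was at least 59.4-fold higher (log2 difference -6.80, SE 0.496, adjusted p = 4.34e-05). Brain was its highest tissue (-0.92), with epidermis close behind, and it was also found in midgut (-3.88), ovary (-4.82) and testis (-7.31).

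BmorCPH5 read -6.20 in the 5th instar CC-CA and -4.02 and -3.61 in the 4th, against 0.67 in salivary gland, its highest tissue, -1.73 in epidermis and -3.14 in ovary. Malpighian tubule (-4.37), testis (-4.86), prothoracic gland (-4.91) and brain (-5.57) followed, and fat body and midgut were dim. Salivary gland stood 5.26-fold above epidermis, the next group. On the second probe salivary gland was again highest (-1.39) with epidermis next (-2.69). The 4th instar CC-CA was lower than epidermis by 2.09 on the log2 scale (SE 0.495, adjusted p = 0.019).

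Against the gonads, 8 of 29 genes were lower in the 4th instar CC-CA than in ovary (8.33% of all sequences were) and 7 were lower than in testis (21.1% were). BmorCPH4, BmorCPH18, BmorCPH21, BmorCPH22, BmorCPH23 and BmorCPH31 were common to both sets, BmorCPH19 and BmorCPH32 were called against ovary and BmorCPH33 against testis. Only ovary and testis brought BmorCPH22 and BmorCPH23 into the test, so the gonad calls of these genes are not independent of that filter. The share in testis is near its background, and nothing is read from that count. Both gonads lay on slide 3 and came from a later stage, so tissue, stage and slide cannot be told apart.

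BmorCPH23 read -8.49 in the 5th instar CC-CA and -5.95 and -5.28 in the 4th, the last alone well above background, against 5.59 in ovary and 4.49 in testis. Every other array was dim, at -8.35 to -5.87. The 4th instar CC-CA minus ovary was -11.21 on the log2 scale (SE 0.52, adjusted p = 2.43e-06). Ovary was 2364-fold and testis 1102-fold above the next somatic group, the 4th instar CC-CA by the mean of its arrays. The second of these arrays lay above that mean, so the excess over it alone was smaller.

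BmorCPH18 read -6.10 in the 5th instar CC-CA and -1.76 and -6.49 in the 4th, against 5.36 in ovary and 3.67 in testis; the other 7 arrays were dim, at -8.50 to -6.99. BmorCPH21 read -5.03 in the 5th instar CC-CA and 0.98 and -4.48 in the 4th, against 5.41 in ovary, 3.47 in testis and -5.56 in salivary gland; the other 6 arrays were dim. The gonads stood clear of all somatic arrays for both genes. The difference of the 4th instar CC-CA from ovary was -9.49 for BmorCPH18 (SE 1.49, adjusted p = 0.0022) and -7.16 for BmorCPH21 (SE 1.70, adjusted p = 0.0188). Ovary was 719-fold and 143-fold above the next somatic group for these genes, the 4th instar CC-CA in both, whose arrays lay far apart. Against the first array alone ovary was 140-fold higher for BmorCPH18 and 21.5-fold for BmorCPH21, and against the second alone 3706-fold and 948-fold. The ovary calls of both were lost under quantile normalization (adjusted p = 0.14 and 0.23) and robust moderation (adjusted p = 0.429 and 0.548).

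BmorCPH19 read -4.15 on the first 4th instar CC-CA array and -6.65, dim, on the second, against 0.42 in ovary and -2.97 in testis. The other probe was clear of background on the first and on the second of these arrays (-4.25 and -6.39). Prothoracic gland read -5.23 on the brighter probe but was dim on the other (-8.16), and the remaining arrays were dim on both. Its difference of the 4th instar CC-CA from ovary was -5.82 (SE 0.888, adjusted p = 0.00187). BmorCPH22 was well above background in ovary (-3.06) and testis (-5.40) only, and ovary was at least 7.43-fold above the next somatic group. These 2 genes and the 3 above are neighbours in the run, and ovary was above testis for each of the 5, a difference between single arrays that was not tested.

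Of the genes outside the run, BmorCPH4 was well above background everywhere. It read 0.43 in the 5th instar CC-CA and 0.10 and -0.85 in the 4th, against 4.91 in ovary, 3.90 in testis and 0.82 in epidermis. Lower levels were found in prothoracic gland (-1.74), brain (-1.91), fat body (-2.71), Malpighian tubule (-2.89), midgut (-4.05) and salivary gland (-5.87). Ovary was 17.1-fold and testis 8.47-fold above epidermis. BmorCPH31, in which testis led, read -3.19 in the 5th instar CC-CA and -4.47 and -4.90 in the 4th, against 2.12 in testis, -1.91 in ovary, -3.35 in brain and -5.75 in epidermis, and it was dim on the other 5 arrays. Its difference of the 4th instar CC-CA from testis was -6.81 (SE 0.497, adjusted p = 9.07e-06). Testis was 39.6-fold above the next somatic group. BmorCPH33 was dim on all 3 CC-CA arrays, against -1.78 in testis and -4.12 in fat body, and dim on the other tissues too, testis being 5.07-fold above fat body. Its other probe was well above background on the second 4th instar array as well (-6.65, against -1.41 in testis).

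The stage comparison asked which transcripts of the gland differed between the 5th instar, the last of larval life, and the 4th. Of the 34 genes, 20 were bright enough to test, that is, well above background in the 5th instar CC-CA or on each of the 4th instar arrays. BmorCPH14 alone rose in the 5th instar (3.56% of all 23353 sequences tested did), and 8 genes fell (6.94% did): BmorCPH5, BmorCPH10, BmorCPH24, BmorCPH25, BmorCPH26, BmorCPH28, BmorCPH30 and BmorCPH34. Of these, BmorCPH10 and BmorCPH26 entered the test through the 4th instar only, so their calls are not independent of that filter. The difference, 5th minus 4th instar, was below 0 for 14 of the 20 genes and for 12024 of the 23353 sequences. Its median over the 20 genes was -1.58, against -0.03 over all sequences tested. With the second 4th instar array alone, which shared slide 2 with the 5th instar array, the median was -0.46, and with the first alone -2.32. The other families gave medians of -0.63 over 29 genes for RR-1, 0.15 over 28 for RR-2, -1.71 over 18 for BmorCPG and -2.85 over 4 for the BmorCPT, BmorCPF and BmorCPFL genes. In these families the difference was below 0 for 19, 11, 12 and 3 of the genes tested. At an adjusted p below 0.05, 13, 4, 9 and 3 were called lower in the 5th instar and 3, 11, 3 and 1 higher.

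**Figure D3:**
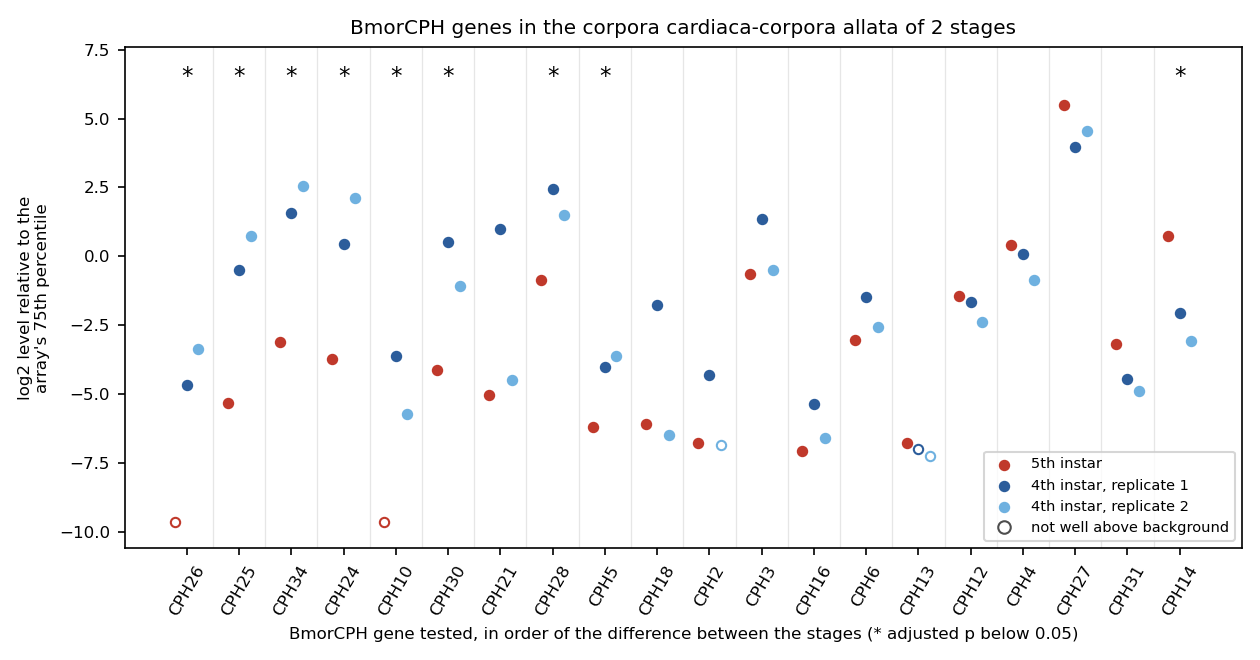
The 20 genes tested are ordered by their difference between the stages; the vertical axis gives the log2 level relative to the array's 75th percentile on the 5th instar CC-CA array (red) and the 2 arrays of the 4th instar (blue), and open circles were not well above background. Stars mark an adjusted p below 0.05. The red point lies under both blue points for the 8 genes that fell and above both for BmorCPH14, while for BmorCPH18 and BmorCPH21 the blue points lie far apart.

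BmorCPH14 read 0.74 in the 5th instar CC-CA, against -2.05 and -3.08 in the 4th. The groups did not overlap, and the rise was 9.90-fold (log2 difference 3.31, SE 0.507, adjusted p = 0.00095). The second probe gave 3.19. The call held under all 10 alternatives with a test (adjusted p up to 0.0149), and within slide 2 the difference was 3.83.

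The 4 epidermis-rich neighbours fell together. BmorCPH34 read -3.11 in the 5th instar CC-CA, against 1.57 and 2.55 in the 4th (log2 difference -5.17, SE 0.50, adjusted p = 2.8e-05). BmorCPH25 read -5.31 in the 5th instar CC-CA, against -0.49 and 0.72 in the 4th (log2 difference -5.42, SE 0.531, adjusted p = 2.97e-05). BmorCPH24 read -3.73 in the 5th instar CC-CA, against 0.43 and 2.10 in the 4th (SE 0.601 on the log2 scale, adjusted p = 0.00014). The 4th instar was thus 32.1-fold to 42.9-fold above the 5th for these 3 genes. BmorCPH26 was dim in the 5th instar CC-CA (-9.64), against -4.65 and -3.35 in the 4th, which was at least 19.6-fold higher (fitted log2 difference -5.64, SE 0.544, adjusted p = 2.71e-05). Its second probe gave -3.44 (adjusted p = 0.00155). All 4 calls held under all 10 alternatives.

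Many other sequences high in epidermis were lower in the 5th instar CC-CA as well, mostly by less. Of 438 sequences without a cuticular name that were at least 16-fold higher in epidermis than in prothoracic gland, brain, fat body, midgut, Malpighian tubule and salivary gland, 317 (72.4%, against 71.7% of all sequences) were well above background in the 5th instar CC-CA, against 337 and 349 (76.9% and 79.7%, against 66.6% and 70.3%) on the 4th instar arrays. The log2 of their summed signal was 9.19 in the 5th instar CC-CA, against 10.3 and 10.4 in the 4th, and 13.9 in epidermis itself. Of the 353 tested, 180 were lower and 24 higher in the 5th instar, against 6.94% and 3.56% of all sequences tested. The median difference of the 353 was -1.61, and 40 had a difference of -5 or below. The part of epidermal tissue in the fall of BmorCPH24, BmorCPH25, BmorCPH26 and BmorCPH34 was not tested.

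BmorCPH10 was dim in the 5th instar CC-CA (-9.65), against -3.63 and -5.74 in the 4th, which was at least 12.2-fold higher (fitted log2 difference -4.96, SE 0.679, adjusted p = 0.000394). On the brighter probe it was also seen in epidermis (-5.33), brain (-5.52) and testis (-7.36), with the other 6 arrays dim at -9.59 to -6.09. The second probe was dim in these tissues (-6.07, -6.61 and -9.36) and well above background on the first 4th instar CC-CA array alone. The call was lost under quantile normalization (adjusted p = 0.0515) and robust moderation (adjusted p = 0.164), and the second probe was too dim to test.

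BmorCPH28 and BmorCPH30 were clear in CC-CA and epidermis alike. BmorCPH28 read -0.85 in the 5th instar CC-CA, against 2.44 and 1.50 in the 4th, a fall by 2.82 on the log2 scale (SE 0.496, adjusted p = 0.00243). Its other clear levels were 1.90 in ovary, 0.98 in epidermis, -0.46 in testis, -3.84 in salivary gland, -4.12 in brain and -4.55 in fat body. BmorCPH30 read -4.12 in the 5th instar CC-CA, against 0.51 and -1.09 in the 4th, a fall by 3.83 (SE 0.589, adjusted p = 0.00095). It read -0.06 in epidermis, -2.35 in ovary, -3.61 in brain, -3.85 in prothoracic gland, -4.07 in salivary gland, -4.59 in fat body and -6.88 in testis. Neither gene differed between 4th instar CC-CA and epidermis by the test, with differences of 0.99 (SE 0.557, adjusted p = 0.305) and -0.23 (SE 0.677, adjusted p = 0.861).

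BmorCPH5, highest in salivary gland, read -6.20 in the 5th instar CC-CA, against -4.02 and -3.61 in the 4th (log2 difference -2.38, SE 0.45, adjusted p = 0.00382). Its second probe was too dim in CC-CA to be tested. Among the 11 genes tested that did not pass, BmorCPH27 had a difference of 1.22 (SE 0.461, adjusted p = 0.118) and BmorCPH31 was 2.83-fold higher in the 5th instar by its means (SE 0.452 on the log2 scale, adjusted p = 0.0542). The 5th instar level was above both of the 4th for either gene. BmorCPH31 passed under 5 of 10 alternatives and BmorCPH27 under 1. BmorCPH2, BmorCPH3, BmorCPH6 and BmorCPH16 had differences between -1.19 and -1.03, and BmorCPH4, BmorCPH12 and BmorCPH13 between 0.35 and 0.80, with adjusted p-values of 0.232 to 0.684. The sign of BmorCPH2 turned against the second 4th instar array alone (0.086), and that of BmorCPH13 with a floor on dim signals (-0.25) or the mean of its probes (-0.26).

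The last pair, BmorCPH18 and BmorCPH21, did not pass the stage test, and the 4th instar arrays disagreed. BmorCPH21 read -5.03 in the 5th instar CC-CA, against 0.98 and -4.48 in the 4th, so the difference was -6.02 against the first array and -0.56 against the second (adjusted p = 0.165). BmorCPH18 read -6.10 in the 5th instar CC-CA, against -1.76 and -6.49 in the 4th, with differences of -4.34 and 0.40 (adjusted p = 0.352). The gap between the pair was 44.1-fold for BmorCPH21 and 26.5-fold for BmorCPH18, and both probes of each gene showed it. With a variance trend both passed (adjusted p = 0.00506 for BmorCPH18 and 4.27e-09 for BmorCPH21), and BmorCPH21 passed with normexp too (adjusted p = 0.0109).

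**Figure D4:**
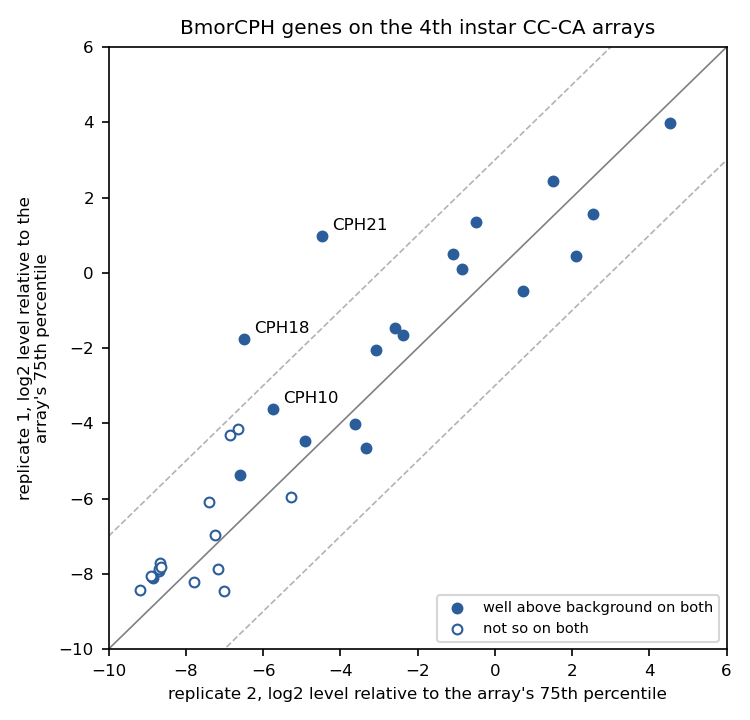
Each point is 1 of the 34 BmorCPH genes, with its log2 level on the second 4th instar CC-CA array on the horizontal axis and on the first on the vertical axis; filled points were well above background on both. The solid line marks equal levels and the dashed lines an 8-fold gap. BmorCPH18 and BmorCPH21 lie past the upper dashed line, and BmorCPH10, named as the next, lies within it with a gap of 4.31-fold.

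Among the 18 genes that both arrays of the 4th instar showed well above background, the median gap was 1.16 on the log2 scale, against 0.36 over 20980 sequences. A gap over 8-fold was found for 2 of 18 (11.1%), against 0.357% of all sequences. The first array was the higher for 12 of the 18, and for 11880 of the 20980 sequences. BmorCPH24, BmorCPH25, BmorCPH26, BmorCPH34, BmorCPH27 and BmorCPH5 were higher on the second. BmorCPH19 was higher on the first array on both probes, as were BmorCPH18 and BmorCPH21, whereas BmorCPH23 was well above background on the second alone. Of 49 sequences without a cuticular name that were at least 16-fold higher in both gonads than in each of the 7 other tissues outside the CC-CA, 23 were well above background on the 5th instar CC-CA array (46.9%, against 71.7% of all sequences) and 27 on each 4th instar array (55.1%, against 66.6% and 70.3%). Their median level was -8.05 in the 5th instar CC-CA, against -4.54 and -6.17 on the 4th instar arrays. Sequence by sequence, the median of the first minus the second 4th instar array was only 0.33, against 0.22 over all sequences. Over 8-fold higher on the first were 4 of the 49, with none the other way, against 296 and 127 of 32093 sequences. The log2 of the summed signal of the 49 sequences was 2.78 in the 5th instar CC-CA, against 4.90 and 5.61 in the 4th. Their part in the gap of BmorCPH18 and BmorCPH21 was not tested.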

How the data were processed

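Total RNA of 12 silkworm samples was labelled with Cy3 and hybridised to 1-colour Agilent arrays. Per the file headers, the deposited scanner files hold spot intensity after background subtraction by Agilent Feature Extraction 9.5.3.1, a version also given in the submitters' processing notes, and are not normalized between arrays. The value table deposited by the authors holds intensity on a linear scale. Each column equals the processed signal divided by 1 constant, and what that constant stands for, and so the centring between columns, stays unknown. Its column medians over the probes analysed were 11.1 (5th instar CC-CA), 10.4 and 10.6 (4th instar CC-CA), 7.82 (epidermis), 7.71 (ovary), 5.50 (testis), 9.43 (prothoracic gland), 7.93 (brain), 10.3 (salivary gland), 7.26 (fat body), 8.81 (Malpighian tubule) and 7.33 (midgut).

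From the deposited intensities, the processed signal was put on a log2 scale and the 75th percentile of the array's non-control spots subtracted. Control spots and outlier flags were left out, spots of a probe were averaged, and 224 of 42564 probes lacking a value on an array were dropped. This percentile was lowest in fat body (1402) and highest in ovary (5827), and the number of arrays limits the precision. One mean per group was fitted with limma 3.58.1 in R 4.3.3 (data.table version 1.17.8), leaving 1 residual degree of freedom. A prior worth 7.41 degrees of freedom was added in the tissue contrasts and 11.4 in the stage contrast. Calls needed a Benjamini-Hochberg adjusted p below 0.05 over 38130 and 32125 probes tested. P-values then measure only the spread between the 4th instar CC-CA samples. A bound, written "at least", sets the brighter mean against, on each dim array, the probe's own signal or the lowest signal still well above background, whichever is higher. Simulated arrays were run through the stage contrast alone. Their spread was drawn from the fitted prior, so they do not test whether that prior holds. Estimated from plain moments, an alternative, the prior was worth 7.97 degrees of freedom in the stage contrast and 5.84 in the tissue contrasts. Plots used matplotlib 3.10.9.

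Slide 1 held the first 4th instar CC-CA array, prothoracic gland, brain and fat body; slide 2 the second, salivary gland, midgut and the 5th instar CC-CA; slide 3 the rest. A gene was represented by its probe of highest mean level. Per-array values are given for members called between stages or enriched in CC-CA or epidermis, and for those at least 2-fold above the next group outside epidermis. Members, lists and alternatives were chosen with earlier results of these data known. The alternatives were normexp background correction, other normalizations, the value table, a floor, probe averaging, no filter, other moderation and leaving out a replicate. No sequences of the members were used here.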

Additional observations from a re-analysis of the deposited data

How the results depend on the processing

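Under alternatives with a test, single members kept their direction and side of the threshold 518 times, lost a call 61 times and gained one 9 times. BmorCPH13 alone changed sign there, between stages, to -0.25 with a floor and -0.26 with the probes' mean (adjusted p = 0.811 and 0.787). Without the first 4th instar array, which is also the value within slide 2, the stage differences of BmorCPH2 and BmorCPH18 turned to 0.086 and 0.40, against -2.46 and -4.34 without the second. The 8 genes lower in the 5th instar CC-CA stayed within 1.5-fold of that count throughout. The 1 gene higher became 3 with normexp and 2 with the value table, with the floor, with a variance trend and with robust moderation. The 3 genes enriched in CC-CA became 0 under quantile normalization and 1 with the plain-moments prior. The 5 genes higher in CC-CA than in epidermis became 3 with normexp, 1 under quantile normalization, 8 without a filter and 3 with the plain-moments prior, and the 10 lower became 1 under quantile normalization. Quantile normalization also took the 6 genes enriched in epidermis to 0, the 8 lower than in ovary to 3 and the 7 lower than in testis to 4; its prior was worth 1.52 degrees of freedom in the tissue contrasts. Beyond these, the cause was not tested.

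Leaving out a 4th instar array leaves no residual degree of freedom, so it gives values without a test. Genes at least 2-fold lower in the 5th instar CC-CA numbered 8 without the first array and 14 without the second, against 14 with both. The median of all probes between the stages was -0.03, 0.12 under quantile normalization and 0.27 with the value table, where the median of the members was -1.58, -1.43 and -1.28. The gonad counts, the untested counts and the plain-moments prior were added after seeing the data, as was normexp on median signals in place of mean signals. No paired analysis was possible because the groups compared share fewer than 2 replicate numbers. Slide as a block left 0 residual degrees of freedom and was not run. Signal over background limits the members: 5 of 34 were never well above it.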
